A study of Xenopus tropicalis with 12 samples.

Results

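Places where thyroid hormone receptor (TR) was found on the chromatin of normal Xenopus tropicalis tadpole tail were compared after T3 treatment and without it. The assay was ChIP-seq, in which DNA pulled down with a TR antibody is sequenced and places with piled-up fragments are listed as peaks. The 3899 regions described here were found in 4 or more of the 6 lists of wild-type tail, and made up 2.56% of the 152247 regions into which the peaks of these 6 lists merged, where 1 shared bp joined peaks. The whole series of 12 lists merged into 256032 regions. The WT T3 group was wild-type tadpoles kept in 10 nM T3 for 18 hours from around stage 54, and the WT control group was wild-type tadpoles of that stage without the hormone, with 3 libraries each. The KO T3 and KO control groups, used below for 1 comparison, were their equivalents in tadpoles that lack both copies of the TRα gene, also with 3 libraries each. WT and KO tadpoles had the same parents, and the design note speaks of merged material from several tadpoles. The study's design note calls the replicates technical but speaks of RNA, not of ChIP DNA, so it is not certain that it applies to these libraries. If it does, the p-values and SDs below rest on how libraries varied and say nothing of how animals vary. Lists of peaks hold no expression values, so neither tissue nor genotype was checked here.

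TR binds T3 response elements in DNA, mostly as a heterodimer with the retinoid X receptor (RXR), and can sit there with or without its hormone. Unliganded TR recruits corepressor complexes that hold target genes down, and T3 exchanges these for coactivators. In the tadpole tail the same hormone later drives resorption at metamorphic climax. The question was therefore whether T3 altered how much receptor was recovered at sites that were occupied in both states. No gene is named, because no annotation of genome build 9.1, the build of the lists, was used here.

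The level of a region in a library was the pileup at the highest summit (the number of fragments stacked there) per 1000000 fragments of that library, abbreviated FPM, and a library without a peak was taken as missing, not as 0. The WT T3 libraries held 299393, 529290 and 774170 fragments after filtering and the WT control libraries held 480140, 1024937 and 1382723. Each WT T3 library was therefore shallower than the WT control library of the same number, at 0.516 to 0.624 of its depth. The lowest peak that a list held stood at 6.68, 3.78 and 2.58 FPM in WT T3 and at 4.17, 1.95 and 2.17 in WT control. The regions had a peak in 2059, 3021 and 3420 cases in the WT T3 lists and in 2779, 3676 and 3693 in the WT control lists, so the missing values lay mostly in the shallow libraries.

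**Figure D1:**
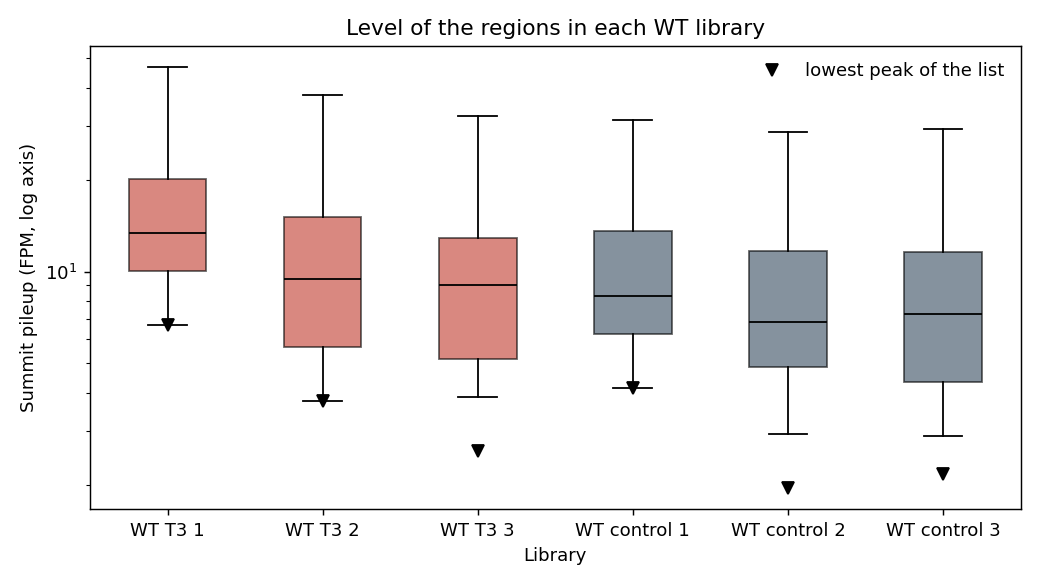
Level of the regions in each WT library, in FPM on a log axis. Boxes span the quartiles with the median, whiskers the 5th to 95th percentiles, and triangles the lowest peak of the list. Medians were 13.4, 9.45 and 9.04 in the 3 WT T3 libraries and 8.33, 6.83 and 7.23 in the 3 WT control libraries, and the library with the highest floor, WT T3 1, also had the highest median.

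Most regions were weak, and a few were very strong. The mean level over the lists with a peak ran from 2.72 to 784 FPM, with a median of 8.20, and only 48 regions exceeded 80. Regions were 214 to 6430 bp wide, with a median of 899 bp. A peak in all 6 lists was found in 932 regions. A further 869 had 2 WT T3 and 3 WT control lists, 319 had 3 and 2, 1068 had 2 and 2, 630 had 1 and 3, and 81 had 3 WT T3 lists and 1 WT control list. Just inside the threshold, the 1779 regions in 4 lists had a median level of 6.61 FPM, and just outside it the 2810 regions in 3 lists had 5.45. Among those left out were 43 regions of 3 WT T3 lists and no WT control list, and 278 of 3 WT control lists and no WT T3 list.

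Within 5 Mb of a chromosome end (the outermost peak of the series taken as its far end) lay 40.5% of the regions, against 10.3% of all 152247 merged regions. Chromosome 10, the shortest, had 293 regions or 7.34 per Mb, and chromosome 1 had 450 or 2.31 per Mb. Most regions stood alone, 60.8% of them with no other within 20 kb, but 39 stretches held 5 or more. The densest lay on chromosome 2, 102069362 to 102162844, where 25 regions were spread over 93.5 kb. Their levels ran from 61.4 to 230.0 FPM, and 23 of the 25 were among the 48 regions over 80. Their log2 differences between WT T3 and WT control ran from -0.20 to 0.53, and none of the 25 passed the test (lowest adjusted p = 0.269, limma), where only 7 of all 3899 regions did (0.103% higher and 0.0769% lower).

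The bulk of the regions showed a small difference, whose size depended on the scaling. Its sign was reversed in fold enrichment, whose pileup is not scaled to depth. The median log2 difference between WT T3 and WT control was 0.27, from -0.34 at the 10th percentile to 0.87 at the 90th, and 72.4% of regions were above 0. The typical standard error of 1 region was 0.47. In the regions of all 6 lists, where no value was missing, the median difference was 0.18. The library medians over these regions varied within a group with an SD of 0.10 (both groups pooled). For a single region, the SD between libraries of the same group was 0.41 in WT T3 and 0.35 in WT control (medians over regions). When each list was centred on the median level of those 932 regions, the median difference over all 3899 fell by 0.15, to 0.13. By the fold enrichment of the peaks, which contains the unscaled pileup, it was -0.25. With libraries of unlike depth that value cannot give the direction. The difference was 0.29 in the 1633 regions under 7.5 FPM and 0.32 in the 865 regions from 7.5 to 10. In the 1025 regions from 10 to 20 it was 0.25. It was 0.20 in the 328 regions from 20 to 80 and 0.05 in the 48 regions over 80, where it turned to -0.12 after centring. Depth was lower in WT T3 than in WT control on average, although WT T3 2 and 3 were deeper than WT control 1. With peaks under a common floor of 6.68 FPM left out (chosen after seeing the data), the median difference was 0.16 in 1597 regions. That setting also changed which regions were kept. The part of depth and floor in these differences was not tested further.

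**Figure D2:**
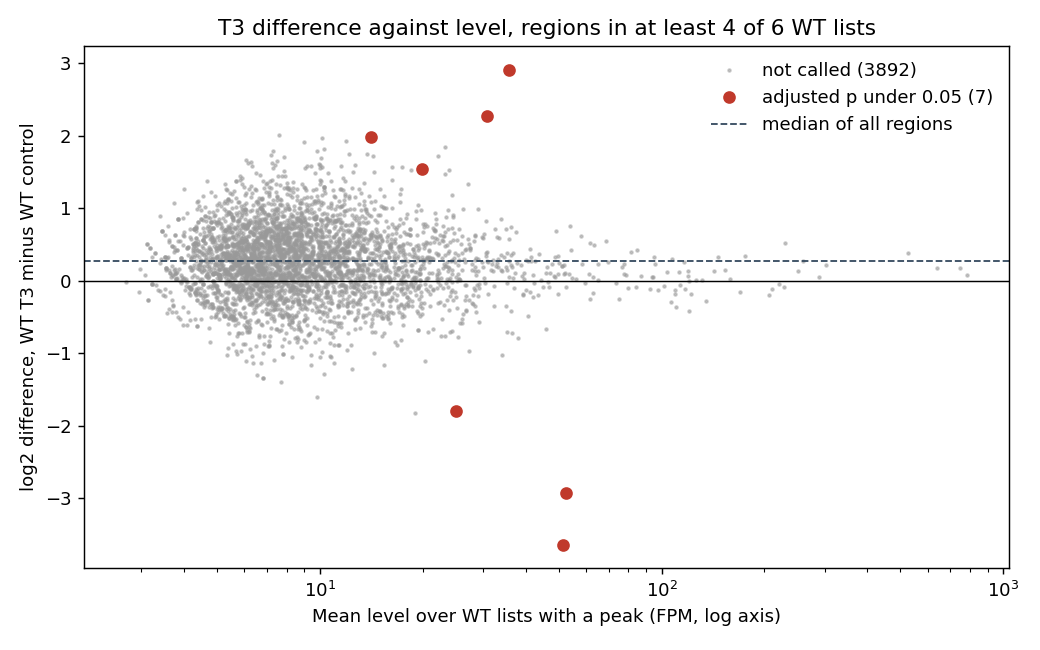
The log2 difference between WT T3 and WT control of each of the 3899 regions, against its mean level on a log axis. The cloud narrows from left to right around a median of 0.27 (dashed line), and the 7 regions past the threshold (large points), with log2 differences from -3.64 to 2.91, lie between 10 and 80 FPM.

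Few regions passed the test, which does not show that the others did not change. In limma's moderated test with Benjamini-Hochberg adjustment over all 3899 regions, 4 regions rose with T3 (0.103% of those tested) and 3 fell (0.0769%). Of the 4, 1 (named Higher 1 below) had a peak in only 1 WT control list. At an unadjusted p under 0.05 (limma) there were 310 above and 39 below, of the 3899. These became 182 and 74 after centring, and 9 and 220 by fold enrichment, which contains the unscaled pileup. Their balance thus depended on the scaling. The counts by fold enrichment cannot give a direction, because its pileup is not scaled to depth. The counts past the adjusted threshold rested on single libraries: 39 rose and 6 fell without WT T3 3, and 2 rose without WT T3 1, WT T3 2 or WT control 1. Among the 932 regions of all 6 lists, every WT T3 value lay above every WT control value in 96 (10.3%) and below in 18 (1.93%). After centring, these counts were 45 and 52 of the 932, so which direction held more regions depended on the scale. Centring gave all 6 lists the same median over these 932 regions, which by itself evens out the directions. Of the 20 ways to split 6 values into 3 and 3, 1 puts every WT T3 value above and 1 puts every one below. Groups can thus be separate in a region without any effect of T3, and the centred counts lay near 1 in 20 of the 932 each way. With any 1 library left out, 150 to 241 regions lay above and 34 to 95 below. Fewer values then had to separate, and regions missing only the left-out library also qualified. These counts are therefore not out of the 932 and cannot be set against the 96 and 18. The 96 regions had a median level of 13.4 and the 18 a median of 21.9 FPM, against 15.1 for all 932. Within 5 Mb of a chromosome end lay 42.7% of the 96 and 44.4% of the 18, against 40.5% of all 3899 regions. That share was not computed for the 932.

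The region ranked first among those higher with T3, Higher 1, spanned positions 129209328 to 129209729 of chromosome 3. Its levels were 40.1, 35.9 and 62.0 FPM in the WT T3 libraries, against 5.06 in WT control 3 and no peak in WT control 1 and 2. All 3 treated libraries were far above the only control value. With 1 control library, the spread of the control group was borrowed from the other regions, and the region entered the rule through its 3 treated lists, so its test weighs less than those of regions with several values per group. The log2 difference was 2.91 ± 0.49 (SE). It counts among the regions past the threshold, but its p-value is not given because the control group had 1 value. The underlying pileups were 12, 19 and 48 fragments in WT T3 and 7 fragments in WT control 3. A region 17.7 kb away (129191256 to 129191622) had pileups of 13, 8 and 18 fragments in the WT T3 lists and was called in no WT control list, and so fell outside the rule with 3 lists.

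Higher 2, on chromosome 1, 135033037 to 135033718, had 56.8, 51.0 and 29.7 FPM in WT T3, against 8.78 and 7.96 in WT control 2 and 3 and no peak in WT control 1. The treated and control values did not overlap. The log2 difference was 2.27 ± 0.40 (adjusted p = 0.000382, limma). Here too a region outside the rule was near, 73.6 kb away (134958790 to 134959408), with pileups of 12, 8 and 22 in the WT T3 lists and none called in WT control. The picture along this stretch was not uniform: a region 43.0 kb away (134989068 to 134990082) was called in each WT control list (3, 9 and 7 fragments) and in no WT T3 list, and the 2 regions of the rule within 100 kb had log2 differences of -0.06 and -0.002.

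Higher 3 was located at chromosome 9, 16608874 to 16609249, with 40.1 and 14.2 FPM in WT T3 1 and 3 and no peak in WT T3 2, against 4.17, 4.88 and 7.23 in WT control. Its treated values were apart from each other but both above the controls. In unscaled fragments the pileups were 12 and 11 in WT T3 1 and 3, against 2, 5 and 10 in WT control. The log2 difference was 1.99 ± 0.47 (adjusted p = 0.0478, limma), and 1.80 with an adjusted p = 0.0629 after centring. It was 1.27 with an adjusted p = 0.642 without WT T3 1, and the adjusted p was also above 0.05 without WT T3 2 (0.196), WT control 1 (0.141) or WT control 2 (0.138). No KO list had a peak there.

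Higher 4, on chromosome 2, 864365 to 865786, was the most even of the group and had a peak in all 6 lists. Its levels were 30.1, 32.1 and 28.4 FPM in WT T3, against 8.33, 10.7 and 10.1 in WT control, means of 30.2 ± 1.85 and 9.73 ± 1.25 (SD, n = 3). The groups were well separated. The log2 difference was 1.55 ± 0.37 (adjusted p = 0.0478, limma), but 1.37 with an adjusted p = 0.0998 after centring, and leaving out WT T3 1 or 2 or WT control 1, 2 or 3 gave adjusted p-values of 0.204, 0.265, 0.134, 0.148 and 0.157. The 5 other regions within 100 kb had differences from 0.19 to 0.91, none past the test, where 72.4% of all regions were above 0. Higher 5, on chromosome 9, 61178340 to 61179196, missed the threshold with 33.4, 24.6 and 10.3 FPM in WT T3, against 8.33, 2.93 and 6.51 in WT control. It was added because its groups were separate in FPM, and its log2 difference was 1.73 ± 0.42 (adjusted p = 0.0612, limma; 0.000622 without WT T3 3). With any other library left out, the adjusted p of Higher 5 was 0.0625 to 0.608 (limma).

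The largest log2 differences were decreases. Lower 1, on chromosome 2, 83370866 to 83371152, had 3.78 and 6.46 FPM in WT T3 2 and 3 and no peak in WT T3 1, against 140, 59.5 and 47.7 in WT control. Every control was many times above the treated values. The log2 difference was -3.64 ± 0.40 (adjusted p = 6.21e-09, limma). Lower 2, on chromosome 3, 76367407 to 76367904, had 10.0 and 7.56 FPM in WT T3 1 and 2 and no peak in WT T3 3, against 140, 54.6 and 50.6 in WT control, a log2 difference of -2.93 ± 0.38 (adjusted p = 6.15e-07, limma). In both regions the control pileups hardly varied in raw fragments, at 67, 61 and 66 in Lower 1 and 67, 56 and 70 in Lower 2, although the 3 libraries differed widely in depth. The scaled control values therefore ran in the reverse order of depth. In the strongest region of all the same 3 libraries had 394, 862 and 867 fragments. The KO lists had a single peak at Lower 1, of 1 fragment or 6.69 FPM in KO T3 3. At Lower 2 they had 9 fragments (60.2 FPM) in KO T3 3 and 2 fragments (7.03 FPM) in KO control 1. That KO T3 3 value lay above WT control 2 and 3, in a library where 1 fragment was worth 6.69 FPM. Both regions were narrow, at 287 and 498 bp.

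Lower 3, on chromosome 4, 1038121 to 1039063, had a peak in all 6 lists, with 10.0, 3.78 and 22.0 FPM in WT T3, against 56.2, 25.4 and 32.5 in WT control. The highest treated value came close to the lowest control value without reaching it. The log2 difference was -1.80 ± 0.41 (adjusted p = 0.0354, limma). It was -1.22 with an adjusted p = 0.451 without WT T3 2, which had 2 fragments there, and the adjusted p was 0.221 without WT T3 1 and 0.263 without WT control 1. A neighbouring region 58.5 kb away, from 978621 to 979628, had a log2 difference of the other sign, 1.69 ± 0.47 (adjusted p = 0.127, limma). Lower 4, on chromosome 5, 139106148 to 139106783, had 13.4, 26.5 and 16.8 FPM in WT T3, against 29.2, 34.1 and 32.5 in WT control. Lower 5, on the same chromosome from 8845820 to 8846424, had 30.1, 39.7 and 34.9 in WT T3, against 75.0, 49.8 and 45.6 in WT control. Both were added because their groups were separate, and neither passed the test (log2 differences of -0.78 ± 0.35 and -0.66 ± 0.30, both with an adjusted p = 0.507, limma).

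**Figure D3:**
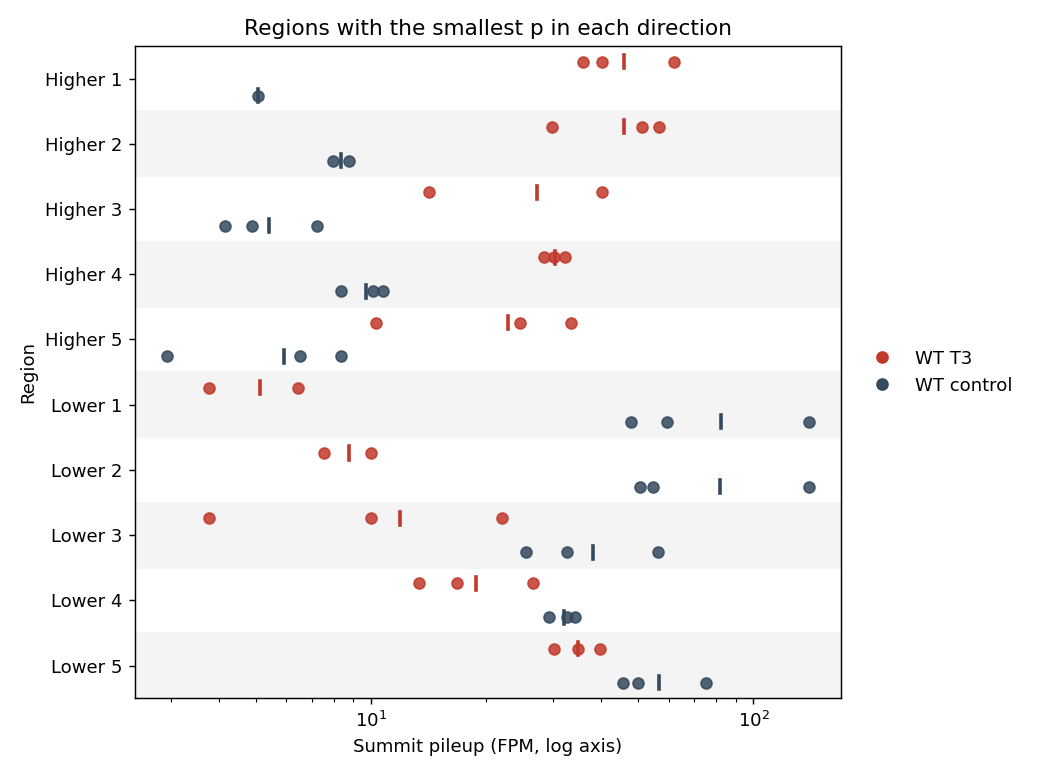
Summit pileup in FPM (log axis) in the WT T3 and WT control libraries for Higher 1 to 5 and Lower 1 to 5, where Higher 5, Lower 4 and Lower 5 were added from the regions whose groups were separate in all 6 lists. Points are libraries with a peak and short lines are their means. Higher 1 to 4 and Lower 1 to 3 passed the test; Lower 1 has 2 treated points under 7 and 3 control points from 47.7 upwards.

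The strongest sites in tail chromatin did not pass the test. Top 1, on chromosome 5, 35928549 to 35930448, had 902, 848 and 664 FPM in WT T3, against 821, 841 and 627 in WT control. The groups overlapped, and the means of 805 ± 125 and 763 ± 118 (SD, n = 3) gave a log2 difference of 0.08 ± 0.11 (adjusted p = 0.861, limma). Top 2, on chromosome 8, 23529071 to 23530254, averaged 795 ± 50.1 in WT T3 and 703 ± 60.7 in WT control, a log2 difference of 0.18 ± 0.10. Top 3, on chromosome 10, 16969892 to 16970785, averaged 673 ± 31.4 and 606 ± 123 (0.17 ± 0.11). Top 1 and Top 2 overlapped in both groups, whereas Top 3 lay below Top 2 in every WT T3 library and overlapped with it in WT control. Top 4, only a few kb from Top 2 on chromosome 8, 23523130 to 23524073, had 635, 648 and 508 in WT T3, against 414, 475.2 and 475.1 in WT control. Its groups did not overlap, but the log2 difference of 0.39 ± 0.12 did not pass (adjusted p = 0.226, limma; 0.717 after centring and 0.00847 without WT T3 3). With any other library left out, the adjusted p of Top 4 was 0.401 to 0.642 (limma).

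Below these came a step to Top 5 to 8, with group means between 237 and 329 FPM. Top 5, on chromosome 3, 110350628 to 110351472, averaged 329 ± 85.1 in WT T3 and 278 ± 31.9 in WT control. Top 6, on chromosome 4, 52501691 to 52502265, averaged 295 ± 52.4 and 283 ± 51.7, Top 7, on chromosome 8, 97813504 to 97814063, averaged 283 ± 24.6 and 237 ± 51.0, and Top 8, on chromosome 5, 145703922 to 145705799, averaged 264 ± 49.5 and 239 ± 22.2. All 4 overlapped between the groups, and neighbours in this order overlapped with each other. Top 9, on chromosome 2, 102114180 to 102116810, had 274, 323 and 222 in WT T3, against 185, 191 and 184 in WT control, so its groups did not overlap (0.53 ± 0.17, adjusted p = 0.269, limma; 0.0182 without WT T3 3). With any other library left out, the adjusted p of Top 9 was 0.360 to 0.608 (limma). Top 10, also in the dense stretch of chromosome 2, from 102155950 to 102158347, averaged 222 ± 37.7 in WT T3 and 233 ± 14.4 in WT control, and was the only one of the 10 with a negative log2 difference (-0.08 ± 0.16). After centring, 5 of the other 9 log2 differences remained positive and those of Top 1, 3, 6 and 8 were negative.

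**Figure D4:**
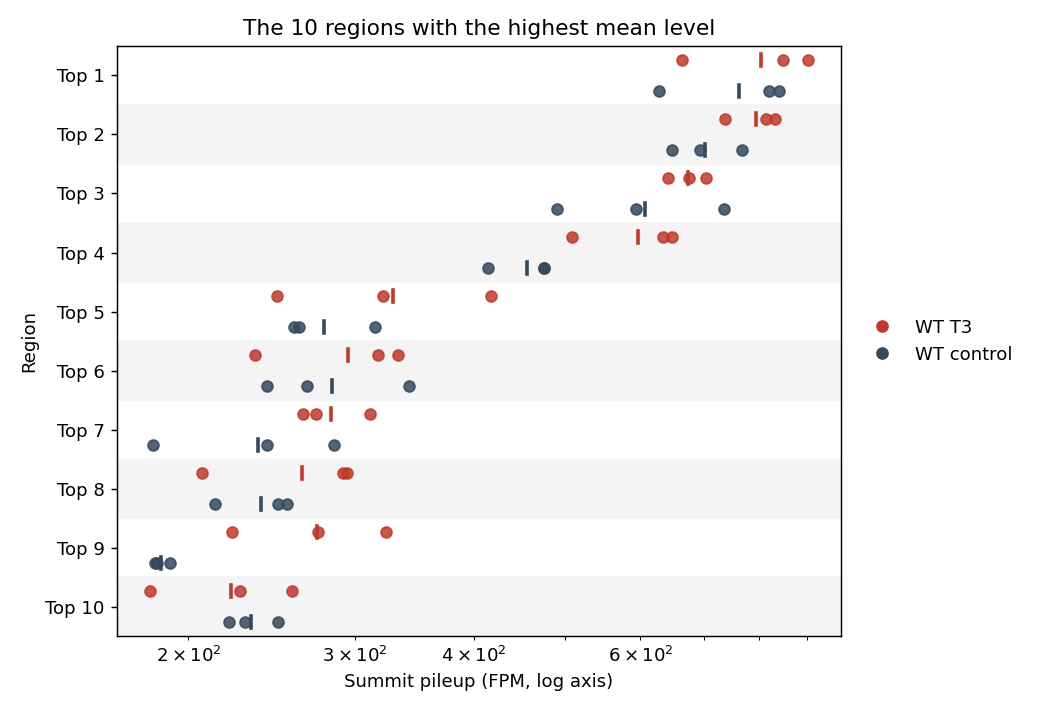
Summit pileup in FPM (log axis) in the WT T3 and WT control libraries for the 10 regions with the highest mean level. Points are libraries and short lines are means; the groups overlap in all but Top 4 and Top 9.

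Of the 3899 regions, 96.8% had a peak in at least 1 of the 6 KO lists and 565 in all 6. A peak in 1 list is a looser rule than the 4 of 6 asked of the WT lists. The median region had a peak in 4 KO lists. The same shares were not computed for the merged regions outside the rule. The effect of T3 in WT was set against that in KO in the 1739 regions with values in at least 2 lists of each of the 4 groups. The KO T3 libraries held 149532 to 1547243 fragments and the KO control libraries 284375 to 858074. The effects differed in 9 regions (0.518%; limma, adjusted p under 0.05), more positive in WT in 5 and more positive in KO in 4. The count was 16 without KO T3 3, 4 without WT T3 1 or WT control 2, 2 without WT T3 2, 3 without WT control 1, and 5 without WT T3 3, WT control 3, KO T3 2 or KO control 3. The median effect was 0.22 in WT and 0.08 in KO on the log2 scale. Of the 7 regions that changed in WT only Higher 4 and Lower 3 had enough KO peaks to be among the 1739, and neither was one of the 9. Among the 10 strongest regions the interaction was past the threshold in Top 1 and Top 2. In all 10, however, the T3 effect was greater in KO, at 0.40 to 1.21, than in WT, at -0.08 to 0.53. After centring the difference (WT minus KO) was 0.03 at Top 5 and only -0.05, -0.07 and -0.09 at Top 3, 7 and 9. At the rest of the 10 it ran from -0.91 to -0.29. Of the 10, only Top 2 then passed the test. Top 2 averaged 1077 ± 145 in KO T3 and 466 ± 54.8 in KO control (SD, n = 3), and its T3 effect was 0.18 in WT and 1.21 in KO, a difference of -1.03 ± 0.16 (WT minus KO, adjusted p = 0.0016, limma). After centring that difference was -0.81 (adjusted p = 0.0303, limma). Top 1 averaged 1038 ± 68.0 in KO T3 and 495 ± 44.9 in KO control, with effects of 0.08 in WT and 1.07 in KO and a difference of -0.99 ± 0.17 (adjusted p = 0.00565, limma; 0.116 after centring).

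In 3 weaker regions the difference had the other sign. Genotype 3, on chromosome 6, 135051047 to 135051664, averaged 12.1 ± 1.12 in WT T3 and 7.63 ± 2.51 in WT control (SD, n = 2), and 10.1 ± 3.86 in KO T3 and 69.6 ± 9.86 in KO control (SD, n = 3). Genotype 4, on chromosome 5, 6443953 to 6444566, averaged 46.0 ± 9.24 in WT T3 and 37.0 ± 10.4 in WT control, against 70.0 ± 72.8 in KO T3 and 352 ± 48.4 in KO control. Genotype 5, on chromosome 2, 155159736 to 155160323, averaged 40.3 ± 5.36 in WT T3 and 32.1 ± 9.44 in WT control, against 19.3 ± 8.30 in KO T3 and 75.4 ± 18.6 in KO control. In all 3 the KO control values stood above those of the 3 other groups, while WT T3 and WT control lay near each other. The differences between the effects were 3.37 ± 0.61, 3.13 ± 0.60 and 2.33 ± 0.50 on the log2 scale (adjusted p = 0.00932, 0.00943 and 0.0300, limma). After centring they were 3.61, 3.35 and 2.55 (adjusted p = 0.000969, 0.000559 and 0.00358, limma). On the uncentred scale Genotype 3 no longer passed without WT T3 2, WT T3 3 or WT control 2 (adjusted p of 0.0553, 0.0574 and 0.101), nor Genotype 4 without WT T3 2 or WT control 1 (0.0694 and 0.0903). Genotype 5 did not pass when any 1 of the WT T3 libraries, WT control 1 or 3, KO T3 2 or KO control 1 or 2 was left out (0.0587 to 0.121).

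**Figure D5:**
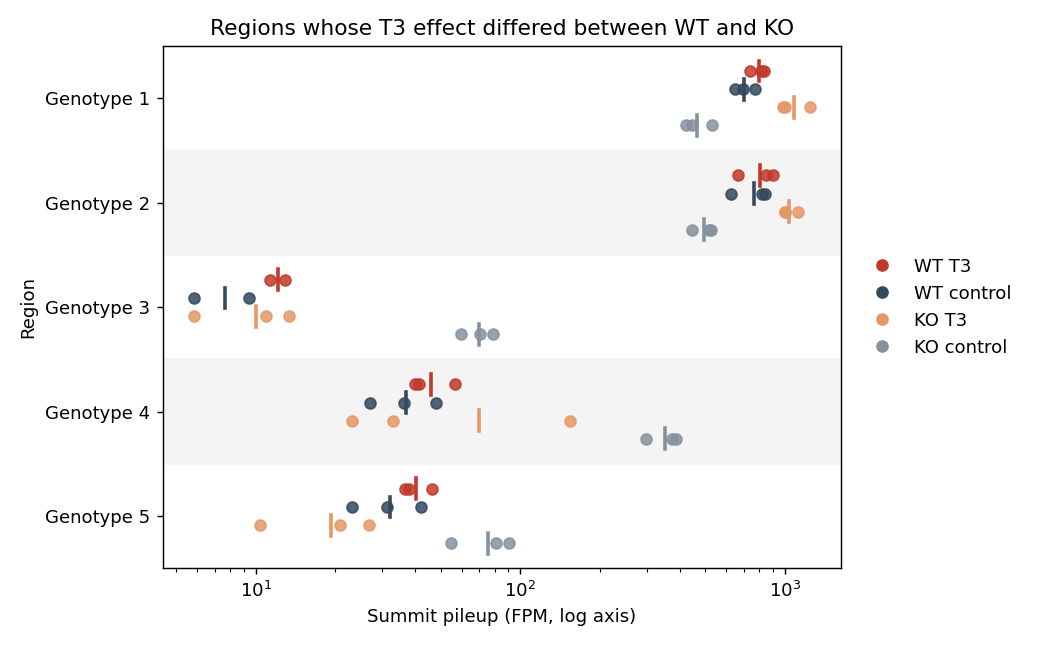
Summit pileup in FPM (log axis) in the 4 groups for the 5 regions with the smallest p for a T3 effect that differed between WT and KO; Genotype 1 is Top 2 and Genotype 2 is Top 1. Points are libraries with a peak and short lines are means. WT T3 and WT control lie close together in each region, and KO control lies below them in Genotype 1 and 2 and above them in Genotype 3, 4 and 5.

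Of the regions named for T3 in WT, Higher 4, Higher 5 and Lower 3 to 5 had enough KO peaks for this test. Lower 3 averaged 43.2 ± 20.5 in KO T3 and 20.8 ± 9.89 in KO control (SD, n = 3), an effect of 1.04 in KO against -1.80 in WT. That difference of -2.84 ± 0.69 did not pass (adjusted p = 0.0605, limma). Higher 4 had effects of 1.55 in WT and -0.27 in KO, a difference of 1.81 ± 0.63 (adjusted p = 0.346, limma). At Higher 1 the KO lists had a single peak, with 5.82 FPM in KO T3 2, and at Higher 2 they had 8.53 and 10.3 in KO T3 1 and 2 and no peak in KO control, so the difference between genotypes could not be tested there.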

How the data were processed

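Per the submitters' processing notes, Bowtie2 2.3.4.1 served for alignment and MACS2 2.1.1.20160309 for peak calling. Per the file headers, each library was called alone, as paired-end fragments with duplicates removed, without an input library, at a q-value cutoff of 0.05, taking the genome as 1510000000 bp and the local background from 10000 bp. No input library was used, so a site rich in fragments with any antibody cannot be told from one bound by TR. The deposited pileup is a signal: unscaled fragments stacked at the summit. The deposited fold enrichment is a ratio of pileup to local background with a constant added, computed by the authors' caller. The deposited −log10 of the p-value and q-value were used only as a filter.

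The 6 WT lists were merged (Python 3.11.15), and log2 of the pileup per 1000000 fragments plus a pseudocount of 1 was compared with limma 3.58.1 (mean-variance trend, missing values left out, Benjamini-Hochberg adjustment). In regions with 1 list of a group, that list was taken to vary like the rest. KO values were the highest KO peak that shared at least 1 bp. The text names regions past adjusted p = 0.05 (filled to 5 per direction with the smallest p among regions of all 6 lists whose groups did not overlap), the 10 highest and the 5 with the smallest interaction p. Members and rules were chosen with earlier results of these data known. Steps were tested on simulated data. The planned look-up of genes was not made, because no annotation of build 9.1 was used here. Depth limits each value: 1 fragment was worth 0.723 to 3.34 FPM in the WT libraries and 0.646 to 6.69 FPM in the KO libraries.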

Additional observations from a re-analysis of the deposited data

Results flagged for a closer look

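The T3 effect differed between WT and KO in 9 of 1739 regions (limma), a test of the difference itself. The 5 named ones had differences, WT minus KO on the log2 scale, of -1.03 at Top 2, -0.99 at Top 1, 3.37 on chromosome 6 from 135051047, 3.13 on chromosome 5 from 6443953 and 2.33 on chromosome 2 from 155159736. After centring, which no other value here used, the adjusted p-values in this order were 0.0303, 0.116, 0.000969, 0.000559 and 0.00358 (limma). Leaving out 1 library at a time gave adjusted p-values of up to 0.0113 and 0.0434 for the first pair and up to 0.101, 0.0903 and 0.121 for the other 3.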

How the results depend on the processing

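The 3899 regions became 1401 with a mean of at least 10 FPM, 877 at −log10 q of at least 5, 2583 with windows around summits, 2120 in at least 5 lists, 932 in all 6 and 1597 with a common floor of 6.68 FPM (chosen after seeing the data). The 4 regions higher with T3 became 2 without a pseudocount, with windows around summits or without a variance trend, 11 with a mean of at least 10 FPM, 8 with peaks under 3 fragments left out, 7 in at least 5 lists, 1 at −log10 q of at least 5 or with the common floor, and 0 in all 6 lists (68 at an unadjusted p under 0.05, limma) or by fold enrichment (9). The 3 lower became 0 at −log10 q of at least 5 (1 at an unadjusted p under 0.05, limma) and in all 6 lists (12), and 1 with the common floor. Among the called regions only Higher 4 and Lower 3 had a peak in all 6 lists, so the others could not enter that set. Both had an adjusted p = 0.0927 there (limma). Higher 1, Higher 3, Lower 1 and Lower 2 were likewise not among the regions at −log10 q of at least 5. Nor were Higher 1, Higher 3 and Lower 1 among those with the common floor. Their absence there is not a failed test. The median log2 difference was 0.13 after centring, 0.16 with the common floor and, with the sign reversed, -0.25 by fold enrichment, which contains the unscaled pileup. As that pileup is not scaled to depth, neither this sign nor the counts by fold enrichment give a direction. The 96 regions with all WT T3 values above became 45 after centring, 20 at −log10 q of at least 5, 42 with windows around summits, 49 with the common floor and 4 by fold enrichment, and the 18 below became 52 after centring, 5 at −log10 q of at least 5 and 100 by fold enrichment.

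Leaving out 1 library gave 2 to 39 regions higher (39 without WT T3 3, 2 without WT T3 1, WT T3 2 or WT control 1) and 2 to 6 lower (6 without WT T3 3). Median differences were then 0.19 to 0.36. The groups were separate in 150 to 241 regions above and 34 to 95 below, where fewer lists make separation easier and regions missing only the left-out library also qualify. From 2 to 16 regions had a different effect in KO (16 without KO T3 3, 2 without WT T3 2). Higher 1, Higher 2, Lower 1 and Lower 2 passed under every alternative that gave them a value, except Higher 1 and 2 by fold enrichment. For Higher 1 each of these fits had only 1 control value. With the replicate number as a block, 15 regions were higher and 3 lower of 2673 that could be fitted, and Higher 5, Top 4 and Top 9 passed (adjusted p = 0.00707, 0.00328 and 0.0200, limma). Higher 3, Higher 4 and Lower 3 had adjusted p-values of 0.0200, 0.00911 and 0.000441 with the block (limma), against 0.0478, 0.0478 and 0.0354 without it. Same-numbered libraries deviated together with r = 0.0648, -0.0117 and 0.157 over 932 regions. WT T3 1 and 3 correlated best with the WT control library of their own number, and WT T3 2 with WT control 1 (r = 0.0600). Depth rose with the number in both WT groups. So did fragment size, from 167 to 209 bp in WT T3 and from 151 to 201 bp in WT control. These values do not settle whether the numbers pair the libraries, and the main test left pairing out. The cause of these shifts was not tested.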
